A study of Drosophila melanogaster with 4 samples.

Results

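CTCF-enriched regions were described across the Antennapedia complex, the cluster of Hox genes lab, pb, Dfd, Scr and Antp on chromosome arm 3R of Drosophila melanogaster. The members were all enriched regions on 3R that overlapped positions 2480000 to 2830000 of FlyBase release 5, a window set by gene position. There were 19 such regions of 3888 in the list made from both libraries together (the pooled list), 14 of 2408 in replicate 1 and 10 of 2080 in replicate 2. The data came from whole wild-type Oregon-R embryos aged 14 to 16 h, fixed with formaldehyde and immunoprecipitated for CTCF. There were 2 CTCF ChIP libraries, and the 2 input libraries of sheared chromatin were not analysed here. All libraries shared 1 strain, 1 genotype and 1 stage, so the regions average over every embryonic tissue, including cells in which a given Hox gene is off.

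Each region carries a score from the authors, whose formula is not stated, and it was used to describe and rank regions within a list. On the whole of 3R there were 862 pooled regions, 514 replicate 1 regions and 454 replicate 2 regions. Median scores on the arm were 0.38, 0.63 and 0.76 in these lists. Read totals are unknown, so the error that depth adds to these values could not be estimated. Nothing in the labels says that each replicate was a collection of its own, so the spread between them may be technical.

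CTCF is a zinc-finger protein that binds chromatin insulators, elements that restrict which promoters an enhancer can reach and that can hold distant sites together in loops. In flies it is best known at the boundaries of the bithorax complex, the other Hox cluster of 3R. Hox genes encode homeodomain transcription factors that give segments their identity, and the order of the genes along the chromosome follows the order of the segments they shape. In the Antennapedia complex lab acts in the anterior head, pb in the mouthparts, Dfd in the mandibular and maxillary segments, Scr in the labial and anterior thoracic segments and Antp in the thorax.

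Other genes lie between these 5 Hox genes. The RefSeq annotation of assembly release 6, used here for gene order only, lists 43 genes from lab to Antp, of which 19 are protein coding, and all 5 Hox genes matched it by symbol in that order. A group of cuticle protein genes stands between lab and pb. Between pb and Dfd stand zen, which patterns dorsal tissue, bcd, the maternal determinant of anterior fate, and Ama, a secreted immunoglobulin-domain protein. The pair-rule gene ftz stands between Scr and Antp. A position in release 5 was at hand for Antp alone, at about 2722000 to 2825000, so other regions are given by position and not tied to a single gene.

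CTCF enrichment across the complex was uneven, with a few strong regions among many weak ones. In the pooled list 5 regions scored 3.03 to 4.85, another pair scored 1.02 and 0.89, and the other 12 scored 0.40 or less. Regions are called strong, intermediate or weak below by these 3 ranges of the pooled score, which were set after the scores were seen. On the whole of 3R, 78 of 862 pooled regions scored as high as the lowest strong region or higher. The highest weak score, 0.40, lay at percentile 54.4 of the arm, so scores this low were usual among the pooled regions of 3R. Of the 5 strong regions, 3 lay in the Antp span and the other 2 lay below it, at lower coordinates. The 4 strong regions that were listed in each replicate scored 3.18 to 5.02 in replicate 1 and 2.85 to 4.73 in replicate 2.

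**Figure D1:**
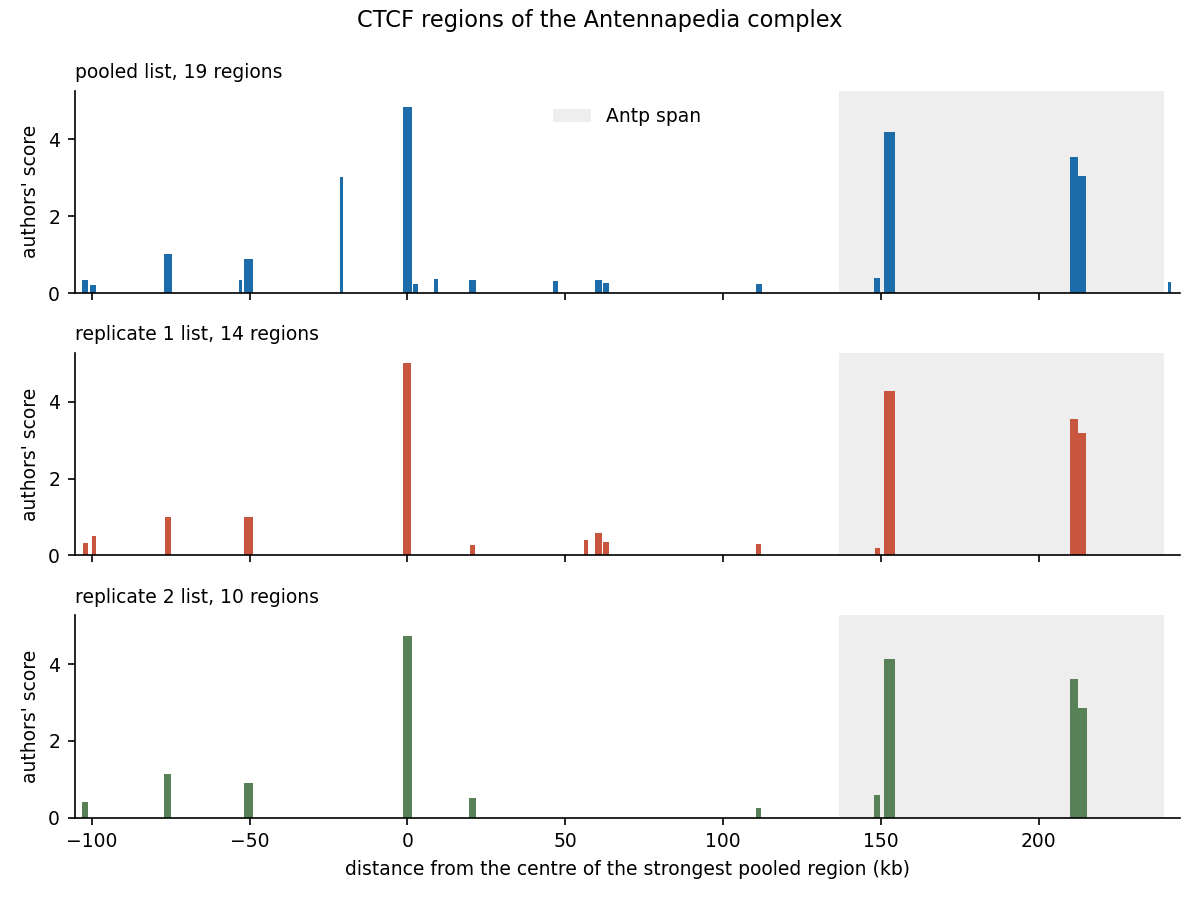
CTCF regions of the Antennapedia complex in the pooled, replicate 1 and replicate 2 lists. Each bar is 1 region drawn to its width, with the authors' score on the vertical axis and the distance in kb from the centre of the strongest pooled region on the horizontal axis, and the grey area is the Antp span. The same 4 tall bars stand in each panel, at scores of 2.85 or more, and a further narrow bar at 3.03 is in the pooled panel alone.

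The strongest region of the complex lay at 3R 2584056 to 2586708, between the lab end of the window and Antp. It scored 4.85 in the pooled list, 5.02 in replicate 1 and 4.73 in replicate 2. Its rank on 3R was 4 of 862, 4 of 514 and 6 of 454 in these lists, and over all chromosomes it ranked 20 of 3888 in the pooled list. Its outline was nearly the same in both libraries, with centres 30.5 bp apart and widths of 2560 bp in replicate 1 and 2583 bp in replicate 2. A weak pooled region, at 2587302 to 2588820 with a score of 0.25, followed after a gap of 593 bp and was in neither replicate list.

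Antp, which specifies thoracic segments, held 4 regions in its span, and all 4 were in both replicate lists. In the rest of 3R 45.8% of pooled regions were in both lists. Of the 78 pooled regions of 3R that scored as high as the lowest strong region or higher, 77 were. The first region of the Antp span, at 2733016 to 2735052, was weak, with a pooled score of 0.40. Next to it, after a gap of 1301 bp, the region at 2736354 to 2739806 scored 4.18 in the pooled list, 4.29 in replicate 1 and 4.13 in replicate 2. It was also the widest region of the complex, at 3453 bp, and ranked 16 of 862 on 3R by score. The remaining regions were a close pair at 2795172 to 2797772 and 2797884 to 2800456, separated by 111 bp in the pooled list. The lower-coordinate region of this pair scored 3.54 in the pooled list, 3.56 in replicate 1 and 3.61 in replicate 2. Its neighbour scored 3.04, 3.18 and 2.85 in these lists.

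The Antp pair was resolved as 2 regions in every list, with gaps of 219 bp in replicate 1 and 171 bp in replicate 2. No list held a region between this pair and the strong region at 2736354, a gap of 55365 bp that was the longest of the complex in the pooled list. The weak Antp region differed most between the libraries. It scored 0.20 in replicate 1, at rank 511 of 514 on 3R, and 0.59 in replicate 2, at rank 271 of 454.

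In the pooled list 3 of the 4 regions of the Antp span were strong and 11 of the 15 in the rest of the complex scored under 0.5. Scores under 0.5 were had by 1 of 4 regions of the Antp span and 5 of 10 elsewhere in the complex in replicate 1, and by 0 of 4 and 2 of 6 in replicate 2. In the rest of 3R the median score was 0.38 in the pooled list, 0.63 in replicate 1 and 0.75 in replicate 2. Pooled scores under 0.5 were thus also usual there. The share of the arm under 0.5 was not taken in any list, so these counts describe no trait of the complex. Median scores differ between the lists, so the counts are not compared across them. Median pooled scores were 3.29 over the 4 regions of the Antp span and 0.34 over the 15 regions elsewhere in the complex. The corresponding medians were 3.37 and 0.46 in replicate 1, and 3.23 and 0.71 in replicate 2. With so few regions these medians are a description without a test. The pooled list had 38.8 regions per Mb in the Antp span and 60.7 per Mb elsewhere in the complex, a ratio of 0.639 (exact 95% interval 0.154 to 2.01). The two-sided exact binomial test gave an adjusted p of 0.738. The ratio was 0.959 in replicate 1 (0.220 to 3.33) and 1.60 in replicate 2 (0.332 to 6.74), so its direction differed between the lists.

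The low-coordinate end of the window, where lab is the first Hox gene, held regions of low and intermediate score. The first member, at 2482230 to 2484222, scored 0.34 in the pooled list, 0.33 in replicate 1 and 0.40 in replicate 2. After 705 bp it was followed by a region at 2484928 to 2486770, with a pooled score of 0.21, that was in replicate 1 (score 0.51) and not in replicate 2. The region at 2508444 to 2510680 scored 1.02 in the pooled list, 1.00 in replicate 1 and 1.14 in replicate 2, and its centre differed by 42 bp between the replicates. A region of similar strength at 2533512 to 2536446 scored 0.89, 1.00 and 0.90 in these lists. Its weaker neighbour at 2532030 to 2533056, with a pooled score of 0.34 and a width of 1027 bp, was in neither replicate list.

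Between the strongest region and the Antp span the pooled list held only weak regions. Dfd and Scr come before Antp in gene order, but their limits in release 5 were not used here, so these regions are given by position. After the one at 2587302 there were 6 pooled regions below the Antp span, which scored 0.24 to 0.36 and began at 2593938, 2604988, 2631552, 2644952, 2647340 and 2695708. Of these, 2604988 was in both replicates (0.28 in replicate 1 and 0.52 in replicate 2), as was 2695708 (0.30 in replicate 1 and 0.25 in replicate 2). The adjoining regions at 2644952 and 2647340 were in replicate 1 alone, with scores of 0.58 and 0.34. Replicate 1 also listed a region at 2641214 to 2642521, with a score of 0.40, that overlapped no pooled and no replicate 2 region. A gap of 46513 bp without any pooled region followed the region at 2647340.

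Outside the window neither of the nearest pooled regions was strong. At the low end the first region inside scored 0.34, against 0.21 for the nearest one outside, at 2471614 to 2473264. This outer region was in neither replicate list. In the replicate lists the order was reversed, with 0.33 inside and 1.75 outside in replicate 1, and 0.40 and 1.81 in replicate 2. The outer regions of these lists began at 2429942 and 2429892. At the high end the last region inside, at 2826178 to 2827280, scored 0.30 and was in neither replicate list, against 0.68 for the nearest one outside, at 2854262 to 2856414. In the replicate lists the last region inside was a strong one of the Antp span. It scored 3.18 against 0.53 outside in replicate 1, and 2.85 against 0.85 in replicate 2.

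One strong region of the pooled list had no counterpart in either replicate list. It lay at 3R 2563952 to 2564952, below the strongest region, with a score of 3.03 at rank 78 of 862 on the arm and a width of 1001 bp. That is the shortest width in the pooled list, and the shortest regions of both replicate lists were 1301 bp wide. On 3R, 78 pooled regions scored as high or higher. Of these 77 overlapped both replicate lists, and the region at 2563952 was the exception. The narrowest of the other 77 was 2417 bp wide. In the rest of 3R, 301 pooled regions overlapped neither replicate list (35.7%), with a median score of 0.33 and a highest score of 2.21. The other 18 regions of 1001 bp on the arm had a median score of 0.38 and a highest score of 0.44.

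**Figure D2:**
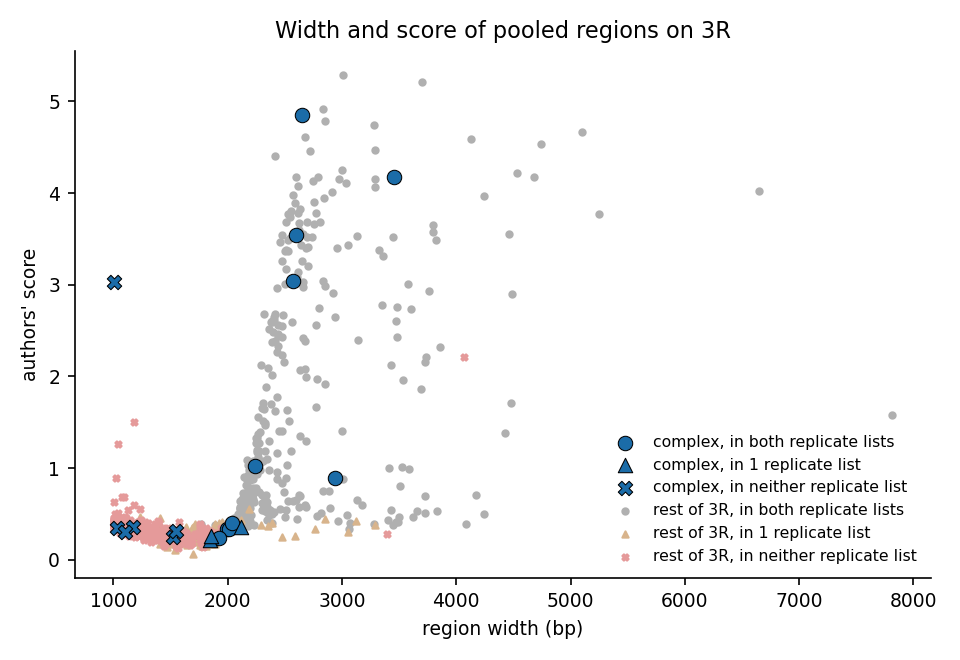
Width in bp (horizontal axis) and authors' score (vertical axis) of pooled regions on 3R, with large blue symbols for the 19 regions of the complex and small symbols for the 843 in the rest of the arm. Symbol shape gives overlap with both, 1 or neither replicate list, and the complex region of 1001 bp with a score of 3.03 stands apart at the upper left.

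The second question was how far both libraries found the same regions in the complex. Of the 19 pooled regions, 10 overlapped both replicate lists, or 52.6% (exact 95% interval 28.9 to 75.6), against 45.8% in the rest of 3R. A further 3 overlapped replicate 1 alone (15.8%, against 12.6% in the rest of 3R) and 0 overlapped replicate 2 alone, against 5.93%. The other 6 overlapped neither list, or 31.6%, against 35.7% in the rest of 3R. Of these 6 regions, 4 were narrower than 1301 bp, the shortest region in either replicate list. In the rest of 3R this held for 167 of the 301 regions in neither list (55.5%). These shares lay near those of the arm, and they are no independent evidence of agreement, since the pooled list shares its reads with both replicates.

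Between the libraries, 10 of 14 replicate 1 regions of the complex overlapped replicate 2 (71.4%), against 77.8% in the rest of 3R. All 10 replicate 2 regions overlapped replicate 1, against 87.6% in the rest of 3R. The 4 regions seen in replicate 1 and not in replicate 2 scored 0.34 to 0.58 in replicate 1, where the median of the arm was 0.63. The pooled list covered 13 of the 14 replicate 1 regions (99.0% in the rest of 3R) and 10 of 10 replicate 2 regions (98.9% in the rest of 3R). The centres of the 10 shared regions differed by 9 to 127 bp between replicates, with a median of 31.5 bp, and the median over 386 regions of the rest of 3R was 47.5 bp. The 3 offsets over 100 bp were at weak regions. At the 4 strong regions the centres were 9 to 30.5 bp apart.

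The third question was whether the complex was richer in CTCF regions than the rest of 3R. The pooled list had 54.3 regions per Mb in the complex and 30.6 per Mb in the rest of 3R. The ratio was 1.77 (exact 95% interval 1.06 to 2.79), with a two-sided exact binomial p of 0.02. After Benjamini-Hochberg adjustment over 6 tests the exact p was 0.06, which did not pass 0.05. In replicate 1 the densities were 40.0 per Mb in the complex and 18.1 per Mb in the rest of 3R, a ratio of 2.20 (1.20 to 3.73) that passed with an adjusted exact p of 0.0469. In replicate 2 they were 28.6 and 16.1 per Mb, a ratio of 1.77 (0.844 to 3.29) that did not pass (adjusted exact p = 0.17). The ratio was above 1 in each list, and the test treats neighbouring regions as independent, so the intervals cover counting alone. The complex was also chosen with earlier results of these data known, which the p-values do not allow for.

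Local density varied widely along the arm, and the complex stood near its upper end. When 78 windows of the same length were laid out over the rest of 3R from both ends of the complex, they held 3 to 22 pooled regions each, with a median of 10.5. The complex held 19, and 3 of the 78 windows held as many or more. In replicate 1 the complex held 14 regions, the windows had a median of 6, and 3 windows held as many or more. In replicate 2 the complex held 10, the windows had a median of 5, and 8 held as many or more. Regions covered 37.6 kb of the complex in the pooled list, or 10.7% of its length, against 6.03% of the rest of 3R. The covered portions were 8.34% of the complex and 3.98% of the rest of 3R in replicate 1, and 6.67% and 3.58% in replicate 2.

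**Figure D3:**
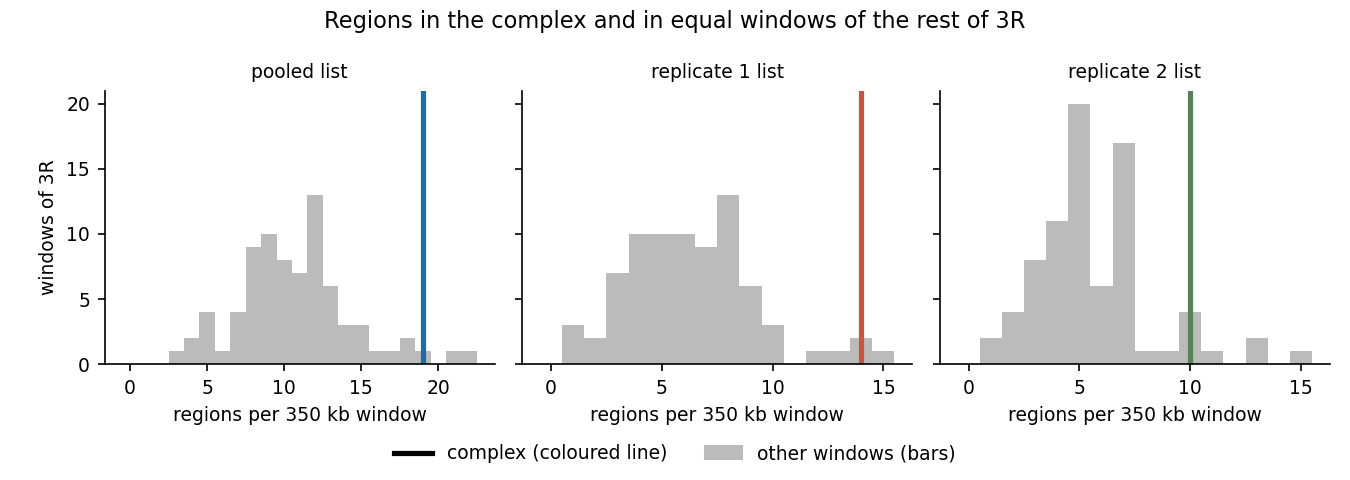
Number of CTCF regions in the complex (coloured line) and in 78 windows of 350 kb over the rest of 3R (grey bars, number of windows on the vertical axis), for each list. The complex lies in the upper tail with 19, 14 and 10 regions in the pooled, replicate 1 and replicate 2 lists.

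The strength of the regions was next set against the rest of the arm. In the pooled list 5 of the 19 regions were in the highest 10% of 3R scores (26.3%), against 9.61% of the rest of 3R. In replicate 1 it was 2 of 14 (14.3%, against 9.80% in the rest of 3R) and in replicate 2 it was 2 of 10 (20.0%, against 9.68%). In the replicate lists the close pair of the Antp span ranked 54 and 75 of 514 in replicate 1 and 52 and 89 of 454 in replicate 2, outside the highest 10%, and the narrow region at 2563952 was not listed. As many or more regions of the highest 10% as in the complex were held by 1 of the 78 equal windows in the pooled list, 7 in replicate 1 and 6 in replicate 2. That window of the pooled list began at 12630029 and held 8 such regions, more than the 5 of the complex.

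Apart from these strong regions, most of the complex had regions of ordinary or low strength. In the pooled list 11 of 19 scored below the arm's median (57.9%, against 49.8% of the rest of 3R), and the median score was 0.35 in the complex and 0.38 in the rest of 3R. In replicate 1, 8 of 14 were below the median (57.1%, against 49.8% in the rest of 3R), and in replicate 2, 4 of 10 (40.0%, against 50.2%). The median score percentile within the arm was 41.9 in the pooled list, 42.3 in replicate 1 and 58.4 in replicate 2, so the direction of any shift in strength differed between the lists. These shares are descriptions without a test. Region widths were close to those of the arm, with a pooled median of 1993 bp in the complex and 1891 bp in the rest of 3R.

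**Figure D4:**
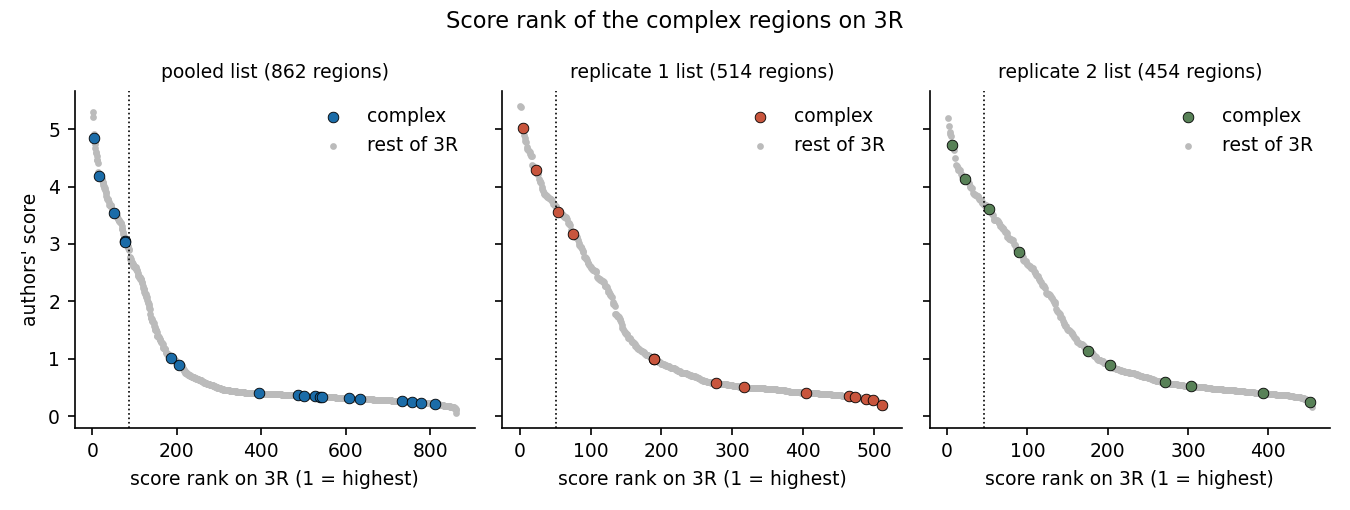
Authors' score against score rank on 3R for the regions of the complex (large coloured points) and of the rest of 3R (small grey points), for each list. The dotted line marks the highest 10% of ranks, which holds 5, 2 and 2 regions of the complex in the pooled, replicate 1 and replicate 2 lists.

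In the pooled list some neighbouring regions of the complex lay close together. Of the 18 gaps between neighbouring pooled regions inside the window, 5 were shorter than 1 kb (27.8%), against 35 of 843 other gaps on 3R (4.15%). This length was chosen after the positions were seen and the difference was not tested. The 5 gaps were 705, 455, 593, 269 and 111 bp long. They joined a weak pair at 2482230, a weak with an intermediate region at 2532030, the strongest region with a weak one at 2584056, a weak pair at 2644952, and the strong pair of the Antp span at 2795172. The weak region at 2532030 and the weak one beside the strongest region were in neither replicate list. The pair at 2482230 lay 1292 bp apart in replicate 1, and its second region was not in replicate 2. The pair at 2644952 was in replicate 1 alone. In replicate 1, 2 of 13 gaps were under 1 kb (15.4%, against 2.60% elsewhere on 3R), and in replicate 2, 1 of 9 (11.1%, against 2.03%). The strong pair of the Antp span was the close pair that every list held. The median gap was 15.5 kb in the complex and 18.3 kb elsewhere on 3R in the pooled list.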

How the data were processed

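Per the file headers, all positions are in FlyBase release 5. The authors deposited a score for every enriched region in each of 3 lists, namely those of replicate 1, of replicate 2 and of both libraries combined. Bowtie 0.12.7, a short-read aligner, is named in the submitters' processing notes. The method by which regions were called, scored and pooled, with its cut-off and use of the input, is not given in the sources used here. Embryos were fixed in 1.8% formaldehyde, per the labels' protocols.

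A single depleted region of the pooled list was left out. Every region overlapping the window by at least 1 bp was taken and named, with the nearest region outside on each side. Regions were placed in the Antp span by their centre. Ranks and percentiles were taken within a list on 3R. Density was compared by two-sided exact binomial tests of region number against length, adjusted by the Benjamini-Hochberg method over 2 comparisons in 3 lists and judged at 0.05. Intervals are exact (Clopper-Pearson) at 95%. The p-values are taken over regions and measure no spread between embryos. The code, run in Python 3.11.15 (SciPy 1.17.1, pandas 2.3.3, NumPy 2.4.6 and Matplotlib 3.10.9), was tested on simulated data. The members and comparisons were chosen with earlier results of these data known. No genome of release 5 was used, so the planned search for a CTCF motif was not run.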

Additional observations from a re-analysis of the deposited data

How the results depend on the processing

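The density ratio of the complex to the rest of 3R stayed above 1 under all 6 alternatives run, from 1.57 with scores above the list median to 2.20. With 1 library left out it was 1.77 to 2.20, and it passed adjustment in the replicate 1 list alone. The ratio of the Antp span to the rest of the complex, which never passed the exact test, was 0.959 to 1.60 with 1 library left out. Against 0.639 in the pooled list it turned to 1.80 with scores above the list median, and to 1.60 with the replicate 2 list or with regions of both replicates; the cause was not tested. These settings left 7, 10 and 10 regions in the complex.

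The median score percentile was 42.3 to 58.4 with 1 library left out and 78.6 among regions above the list median, which removes weak regions by construction. That setting also raised the share found in both replicates to 85.7%, while a reciprocal overlap of 50% or centres within 200 bp left it at 52.6%. The 85.7% is over 7 regions and has no share of the rest of 3R beside it, so it describes no trait of the complex. Covered bases were 6.67% to 8.34% with 1 library left out, since single lists hold fewer regions. Gaps under 1 kb made up 11.1% to 15.4%, and regions in the highest 10% of scores 14.3% to 20.0%, in single lists. Widening these limits, to gaps under 2 kb or the highest 20% of scores, gave 33.3% and 26.3% in the complex, against 7.83% and 19.8% in the rest of 3R. Percentiles of single regions were lower than in the pooled list for 11 of 13 in replicate 1 and 10 of 10 in replicate 2. The other 2 of the 13 were higher in replicate 1. The pooled list is longer and had a lower median score on 3R (0.38, against 0.63 in replicate 1 and 0.76 in replicate 2). The cause of these shifts was not tested. No paired analysis was possible because the files used here hold values of a single group, the CTCF ChIP libraries, and a replicate block needs values of both groups. Unknown read depth limits every statement on absent or weak regions.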
